A study of Mus musculus with 2 samples.

Results

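The genes examined here are 26 members of the GABA and glycine signalling machinery, taken from a list by symbol and looked up among the 32285 genes of 2 single-cell RNA-sequencing libraries of the embryonic mouse brain. All 26 symbols were found. They cover GABA synthesis (*Gad1*, *Gad2*), loading into vesicles (*Slc32a1*), uptake (*Slc6a11*, *Slc6a13*), breakdown (*Abat*), chloride transport (*Slc12a2*, *Slc12a5*), 10 subunits of GABAA receptors, both subunits of the GABAB receptor (*Gabbr1*, *Gabbr2*), 4 subunits of glycine receptors and the scaffold and adhesion proteins *Gphn* and *Nlgn2*. The list is a selection, and several known subunits are not part of it. Each library came from 1 embryo at embryonic day 16.5, labelled as wild type (WT) and as a control of the Eomes-Cre line named EoMltt3. The labels give the tissue as brain hemispheres, and the series design text and the extraction protocol name the cortex. Both embryos belonged to the same group, so the comparisons below are between cell classes within embryos 4 and 5, and no knock-out animal, treatment or other age was part of them. Whether these wild-type controls carried the Cre allele is not given in the sources used here.

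GABA is made from glutamate by the decarboxylases encoded by *Gad1* and *Gad2*, is packed into vesicles by the transporter encoded by *Slc32a1*, and acts on GABAA receptors, which are chloride channels built from several subunits, and on GABAB receptors, which couple to G proteins. Glycine receptors are chloride channels as well and share the vesicular transporter and the scaffold gephyrin. In young neurons GABA can depolarise the cell, since the importer encoded by *Slc12a2* (NKCC) loads chloride while the extruder encoded by *Slc12a5* (KCC) is still scarce.

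Sequences upstream of a RefSeq start listed for the gene were read for 4 members, chosen because they stood out in different classes below: *Gabrg1*, *Slc32a1* and *Slc12a5*, which were higher in GABAergic-lineage than in excitatory neuron-like cells, and *Gabra4*, whose mean was highest in RGC-like cells (radial glia) among the 13 classes ordered by level. They are RefSeq sequences of GRCm38.p6, the build called mm10 in the submitters' notes, and are given on the strand of the gene, 5′ to 3′. The *Gabrg1* stretch is chr5:70842618-70842867 on the minus strand, *Slc32a1* chr2:158610508-158610682 on the plus strand, *Slc12a5* chr2:164960596-164960795 on the plus strand and *Gabra4* chr5:71658384-71658558 on the minus strand. The *Slc32a1* stretch lies inside the full annotated span of that gene (158607260 to 158615747). The *Slc12a5* and *Gabra4* stretches stop short of the gene starts, at 164960846 and 71658308. Capitals mark the letters TAATTA, the core bound by many homeodomain factors.
Gabrg1: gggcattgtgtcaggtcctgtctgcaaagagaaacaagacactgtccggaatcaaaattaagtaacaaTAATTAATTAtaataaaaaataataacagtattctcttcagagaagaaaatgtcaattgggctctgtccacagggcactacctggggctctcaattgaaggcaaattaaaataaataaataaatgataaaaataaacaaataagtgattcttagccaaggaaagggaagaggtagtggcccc
Slc32a1: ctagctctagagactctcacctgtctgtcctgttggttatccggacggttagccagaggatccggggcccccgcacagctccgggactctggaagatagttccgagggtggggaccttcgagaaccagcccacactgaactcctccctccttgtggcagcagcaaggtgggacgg
Slc12a5: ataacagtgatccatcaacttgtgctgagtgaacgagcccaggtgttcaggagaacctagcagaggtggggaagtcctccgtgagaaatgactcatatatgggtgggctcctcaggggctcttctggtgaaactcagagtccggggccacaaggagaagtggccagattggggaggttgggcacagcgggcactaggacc
Gabra4: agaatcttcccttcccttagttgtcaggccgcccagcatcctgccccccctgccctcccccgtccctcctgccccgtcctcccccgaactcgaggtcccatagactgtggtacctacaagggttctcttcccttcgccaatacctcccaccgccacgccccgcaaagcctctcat
The *Gabrg1* sequence held 2 overlapping matches to TAATTA, was 35.6% G or C and contained 1 CpG. The other stretches were richer in G and C, at 61.1% for *Slc32a1* with 8 CpGs, 56.0% for *Slc12a5* with 4 and 63.4% for *Gabra4* with 9, and held neither TAATTA nor CAGATG, the letters of an E-box, on either strand. TAATTA reads the same on both strands. The upstream parts of 32851 windows from the same source are as long as the *Gabrg1* stretch and longer than the other stretches. Of them, 4.84% held TAATTA and 14.4% held CAGATG, and the median G and C content was 52.4% with 6.0 CpGs. A match here describes letters in a window and is not a measured binding site. *Gabrg1*, *Gabra2*, *Gabra4* and *Gabrb1* are neighbours on chromosome 5, where *Gabra4* (71569734 to 71658308, minus strand) and *Gabrb1* (71657921 to 72149572, plus strand) start head to head and overlap by 388 bases. *Gabrg3* and *Gabra5* lie 20453 bases apart on chromosome 7.

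The matrices held 12825 barcodes with 124318613 UMIs (unique molecular identifiers, each marking 1 captured RNA molecule) in embryo 4 and 12289 barcodes with 117679925 UMIs in embryo 5, of which 9932 and 10416 cells were kept. The same 46 barcode sequences occurred in both libraries. Cells were clustered without the 26 members and the further pathway genes, clusters were named from marker genes, and UMIs were summed per embryo and class and given as CPM, that is UMIs scaled to the same total in every class and embryo. RGC-like cells (radial glia, the cortical stem cells) numbered 1340 and 1418 in embryos 4 and 5, IPC-like cells (intermediate progenitors) 1338 and 1340, excitatory neuron-like cells 5300 and 5731, GABAergic-lineage cells 1404 and 1305, and Cajal-Retzius-like cells 61 and 67. The GABAergic lineage split into cells like those of the medial (MGE, 689 and 655), caudal (CGE, 333 and 395) and lateral (LGE, 382 and 255) ganglionic eminences, and cycling GABAergic-lineage cells (256 and 328) were kept apart. The 8 markers of the GABAergic lineage, which include no member, summed to 2269 and 2423 CPM in that class and to 12.1 and 6.21 CPM in excitatory neuron-like cells. Summed haemoglobin and other erythroid markers were higher in embryo 5 in each class compared (374 against 204 CPM in excitatory neuron-like cells), and their part in the results was not tested. Since each UMI is read from the 3′ end and is not scaled by gene length, levels are compared between classes and not between genes.

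**Figure D1:**
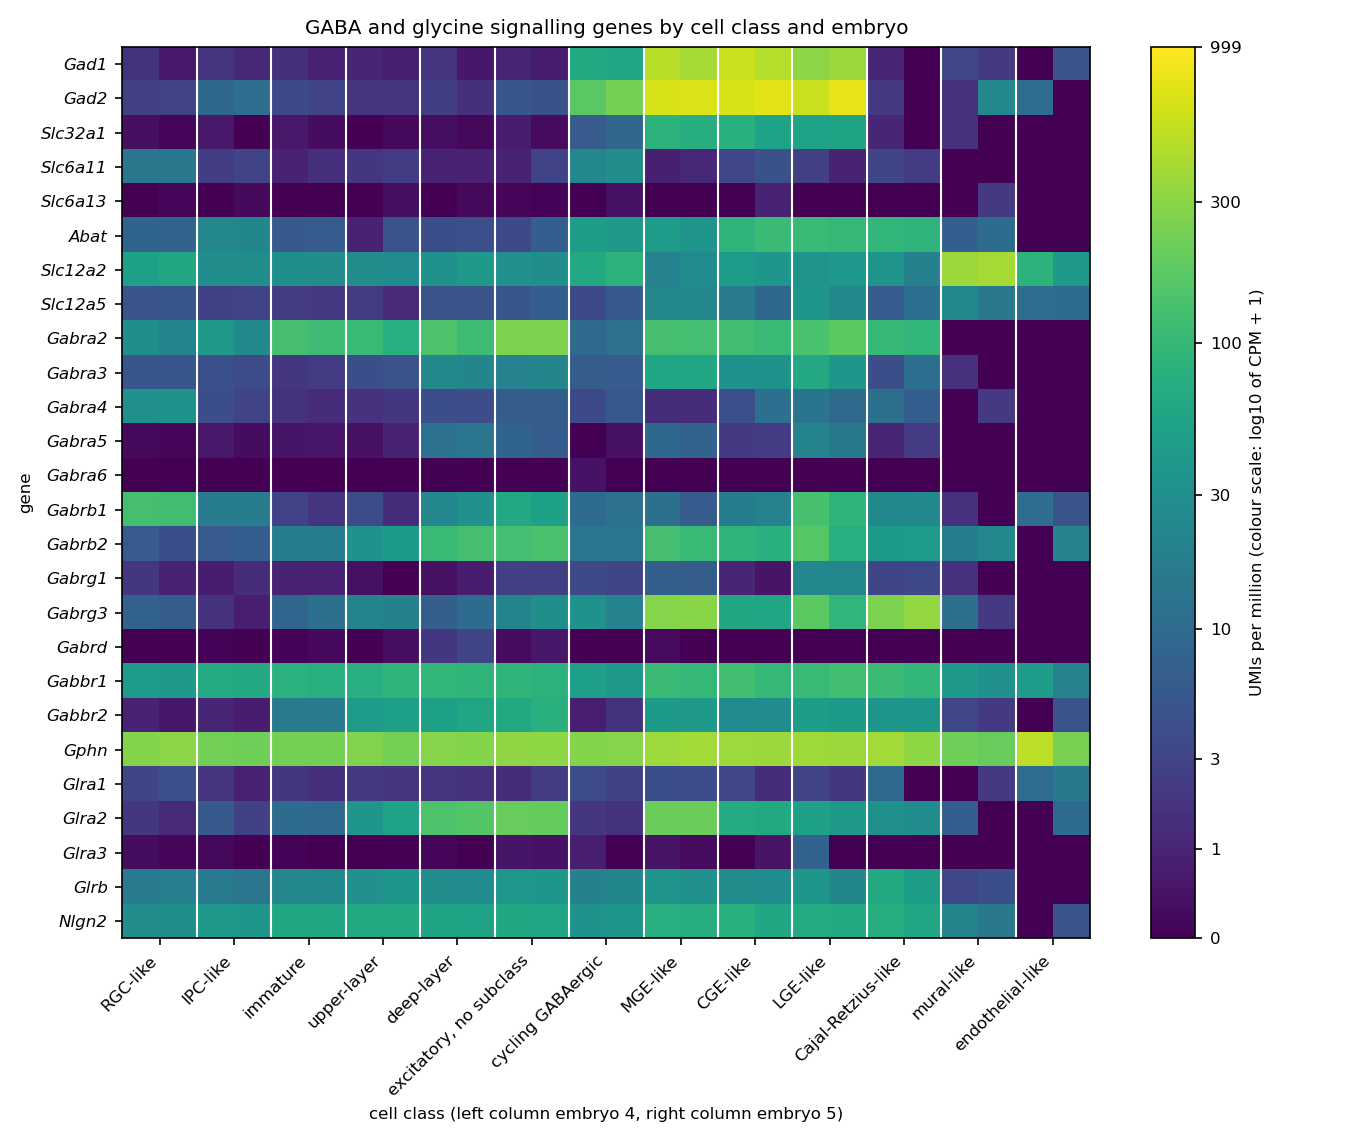
Levels of the 26 genes in 13 cell classes of embryos 4 and 5, as log10 of CPM plus 1 (colour scale from dark, low, to yellow, high), with genes in rows grouped by role and each class shown once per embryo. *Gad1*, *Gad2* and *Slc32a1* are brightest in MGE-like, CGE-like and LGE-like cells, *Gabra4* in RGC-like cells at 31.1 and 33.1 CPM, and *Gphn* is bright in every class.

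The comparison of GABAergic-lineage with excitatory neuron-like cells asked how far the machinery that makes GABA and the machinery that receives it are divided between the neuron types. The genes for making, packing and degrading GABA were far higher in the GABAergic lineage, the gamma subunits *Gabrg1* and *Gabrg3* and the chloride extruder *Slc12a5* were higher as well, and most other receptor and scaffold genes differed little. Of the 26 members, 22 had enough counts to be tested with edgeR's quasi-likelihood test, and 11 were called at a Benjamini-Hochberg adjusted p under 0.05, 9 of them higher in the GABAergic lineage and 2 lower. Among all genes tested, 15.1% were called higher and 17.0% lower. The median log2 fold change was 0.43 over the members and -0.0013 over all genes. Only 2 embryos stand behind each class. The p-values rest on a spread estimated over all classes of the fit, in which sums from the same embryo were treated as independent.

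*Gad1* reached 433 CPM in embryo 4 and 402 CPM in embryo 5 in GABAergic-lineage cells, against 1.48 and 0.767 CPM in excitatory neuron-like cells. *Gad2* stood at 632 and 735 CPM against 3.61 and 2.86 CPM, and *Slc32a1* at 74.2 and 64.2 CPM against 0.466 and 0.209 CPM. For all 3 genes the classes were separated in both embryos by more than 2 orders of magnitude. The fold changes were 333-fold for *Gad1* (log2 8.38 ± 0.21 SE, adjusted p = 2.15e-15), 192-fold for *Gad2* (log2 7.58 ± 0.22, adjusted p = 1.42e-14) and 180-fold for *Slc32a1* (log2 7.49 ± 0.28, adjusted p = 5.77e-13). *Abat*, the transaminase that degrades GABA, was at 72.5 and 69.5 CPM in the GABAergic lineage and at 4.24 and 5.75 CPM in excitatory neuron-like cells, a 12.9-fold difference (log2 3.69 ± 0.13, adjusted p = 2.37e-13).

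At the level of single cells, 84.4% and 83.8% of GABAergic-lineage cells carried at least 1 *Gad1* UMI in embryos 4 and 5, 90.2% and 93.2% at least 1 *Gad2* UMI, and 37.1% and 33.1% at least 1 *Slc32a1* UMI. In excitatory neuron-like cells, which serve as the background for these genes, the shares were 1.42% and 0.733%, 3.47% and 2.13%, and 0.528% and 0.192%. Excitatory neuron-like cells were the deeper class, with a median of 10928 and 9538 UMIs per cell against 6446 and 6240. After thinning every cell to 2000 UMIs, *Gad1* was seen in 55.4% and 54.3% of GABAergic-lineage cells and in 0.379% and 0.140% of excitatory neuron-like cells. At least 1 of the 3 genes was detected in 95.9% and 97.8% of GABAergic-lineage cells, and all 3 together in 32.4% and 28.1%. In cycling GABAergic-lineage cells, which are progenitors, at least 1 of the 3 was detected in 39.5% and 44.5% of cells, with *Gad2* at 169 and 235 CPM and *Gad1* at 65.8 and 58.7 CPM.

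Among the receptor genes, *Gabrg3*, a gamma subunit, was at 205 and 185 CPM in GABAergic-lineage cells and at 12.8 and 17.7 CPM in excitatory neuron-like cells (11.6-fold, log2 3.54 ± 0.18, adjusted p = 3.57e-11). *Gabrg1*, the gamma subunit whose upstream sequence is shown above, was at 11.5 and 9.02 CPM against 1.20 and 1.27 CPM (7.51-fold, log2 2.91 ± 0.32, adjusted p = 1.26e-06). Within the lineage *Gabrg1* was at 23.6 CPM in both embryos of LGE-like cells and at 7.04 and 6.65 CPM in MGE-like cells. In CGE-like cells, at 1.12 and 0.458 CPM, it was no higher than in the excitatory class. *Gabra3*, an alpha subunit, was at 55.5 and 47.4 CPM against 15.3 and 15.4 CPM (3.05-fold, log2 1.61 ± 0.12, adjusted p = 8.88e-09). For these 3 subunits both embryos of the GABAergic lineage lay above both embryos of the excitatory class. *Slc12a5*, the chloride extruder, was also higher, at 26.4 and 19.9 CPM against 4.13 and 4.38 CPM (4.94-fold, log2 2.30 ± 0.18, adjusted p = 6.19e-09), whereas the importer *Slc12a2* was at 29.3 and 32.2 CPM against 31.4 and 32.9 CPM and was not called (adjusted p = 0.301).

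The 2 members called lower were *Gabra2*, an alpha subunit, at 130 and 133 CPM against 169 and 154 CPM (log2 -0.44 ± 0.15, adjusted p = 0.0327, lost with DESeq2's Wald test at -0.36 and an adjusted p of 0.184, with DESeq2's size factors and with doublets kept), and *Gabbr2*, the GABAB subunit that couples to G proteins, at 40.7 and 37.9 CPM against 44.8 and 53.0 CPM (log2 -0.45 ± 0.12, adjusted p = 0.00593, lost with DESeq2's Wald test at -0.38 and an adjusted p of 0.0542). *Gabrb1*, a beta subunit, was called higher (log2 0.49 ± 0.16, adjusted p = 0.0267), but its direction rested on the LGE-like cells and on 1 embryo. It was at 54.3 CPM in embryo 4 and 29.2 CPM in embryo 5, against 27.5 and 26.7 CPM, and the log2 difference was 0.83 in embryo 4 alone and -0.0032 in embryo 5 alone. When the LGE-like cells were left out, an alternative chosen after seeing the data, it turned to -1.23 (adjusted p = 1.27e-07).

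*Glra2*, the alpha subunit of the embryonic glycine receptor, was at 129 and 133 CPM in the GABAergic lineage and 113 and 118 CPM in the excitatory class, and was not called (log2 0.039 ± 0.14, adjusted p = 0.865). Within the lineage it was at 206 and 210 CPM in MGE-like, 68.8 and 65.1 CPM in CGE-like and 51.4 and 40.6 CPM in LGE-like cells. It was called when the LGE-like cells were left out, the alternative chosen after seeing the data. *Glrb*, *Glra1*, *Gabrb2*, *Gabra4*, *Gabra5* and *Slc6a11* were not called in the fit reported here, with log2 differences from -0.076 to 0.70. *Gphn*, which encodes gephyrin, the scaffold that anchors glycine and GABAA receptors, was at 364 and 367 CPM against 276 and 274 CPM. *Nlgn2*, an adhesion protein of inhibitory synapses, was at 75.2 and 69.2 CPM against 59.9 and 58.1 CPM, and *Gabbr1*, the GABAB subunit that binds GABA, at 111 and 105 CPM against 89.1 and 84.2 CPM. Both embryos were higher in the GABAergic lineage for these 3 genes. They were not called in the fit reported here, but were called with DESeq2's Wald test and with the embryo as a block (log2 0.27, adjusted p = 0.0341 for *Gphn*, 0.0426 for *Nlgn2* at log2 0.15 and 0.00772 for *Gabbr1* at log2 0.18). Of the 41 further pathway genes, 35 were tested and 18 called, 7 higher and 11 lower. *Kctd16*, an auxiliary subunit of GABAB receptors, was 4.35-fold higher and *Iqsec3*, a gephyrin-binding exchange factor, 3.49-fold higher, while *Jakmip1*, which binds GABAB receptors and microtubules, was 5.70-fold lower and *Kcnj3*, a potassium channel subunit opened through GABAB receptors, 3.96-fold lower.

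**Figure D2:**
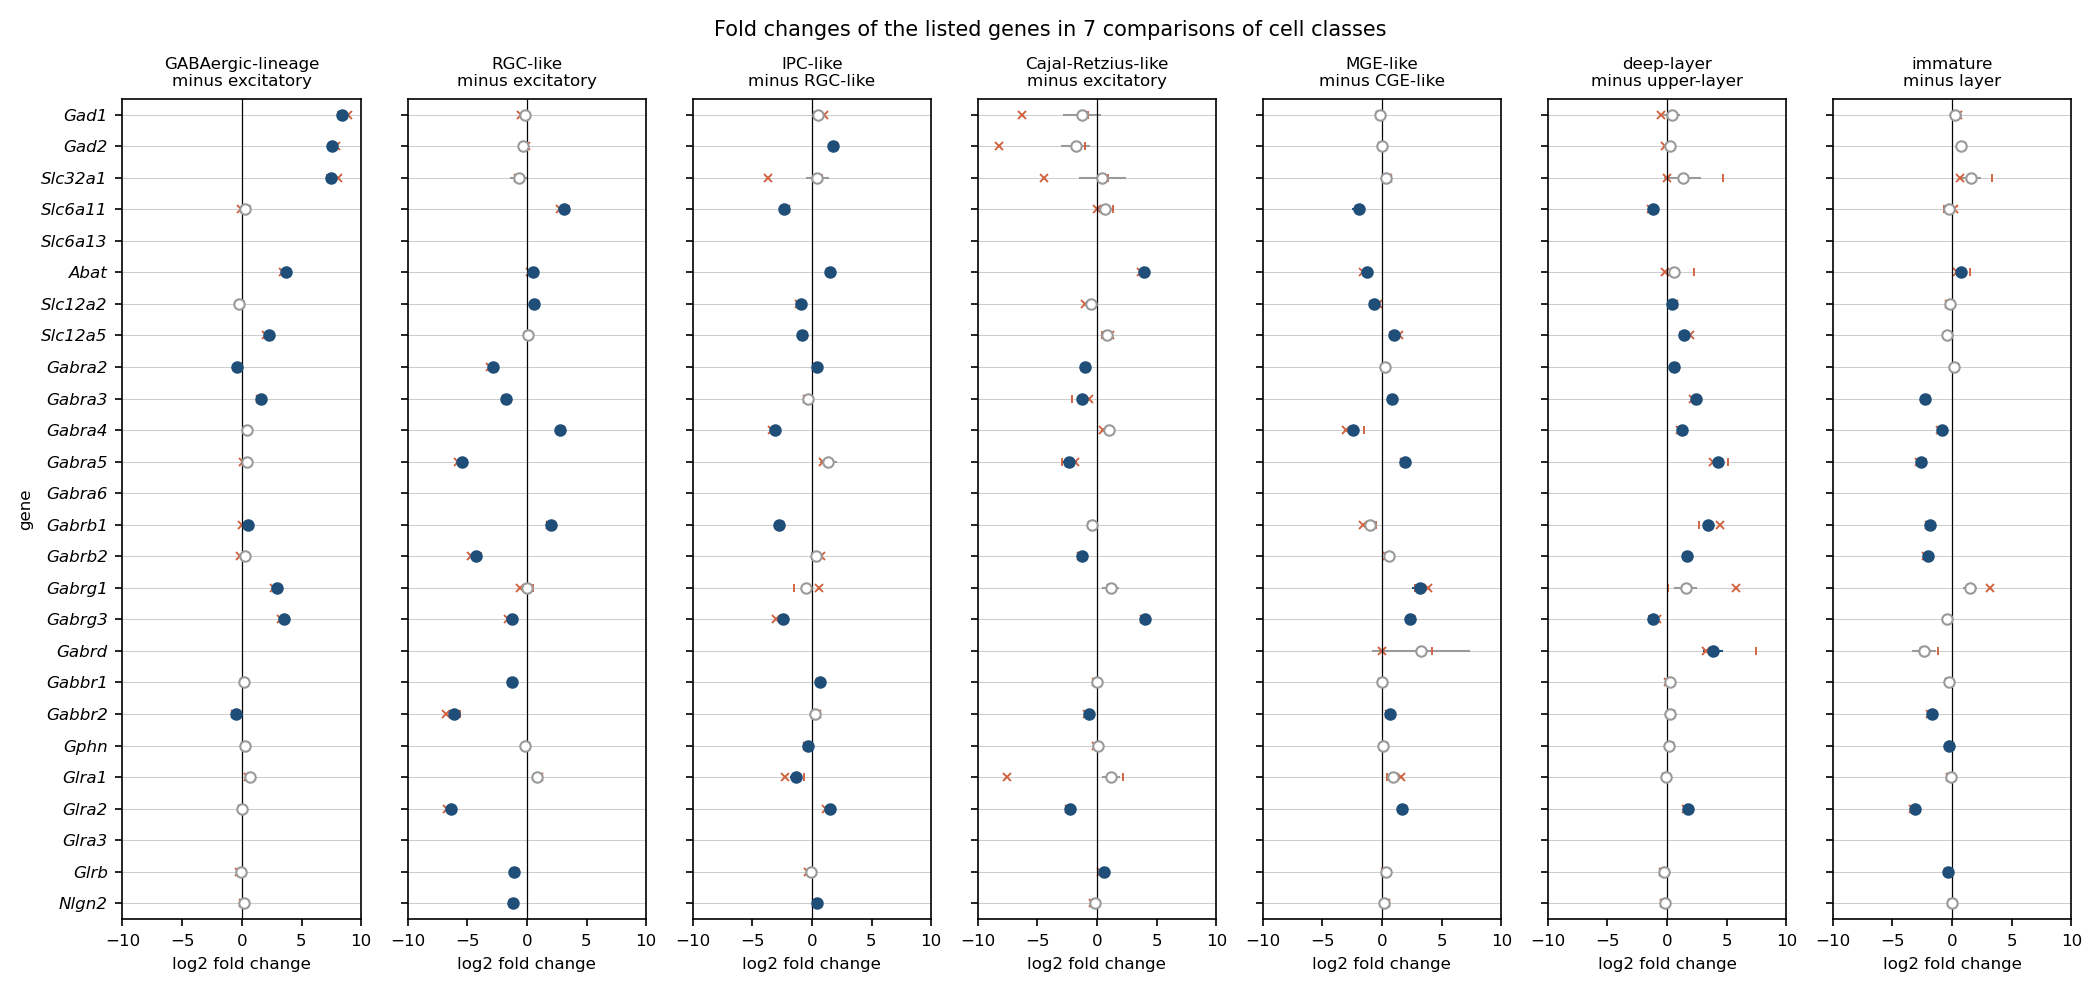
Log2 fold changes of the tested members in the 7 comparisons, 1 panel each, with bars for the standard error. Filled blue points are called at an adjusted p under 0.05, open grey points are not, and the orange marks give the value in embryo 4 alone (upright) and in embryo 5 alone (cross); in the comparison of the neuron types *Gad1* lies at 8.38 and *Gabbr2* at -0.45.

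Within the GABAergic lineage, MGE-like cells were compared with CGE-like cells, named for eminences that give rise to different sets of cortical interneurons. The 10 LGE markers summed to 4340 and 5855 CPM in CGE-like cells, near the 4084 and 6308 CPM of LGE-like cells. In MGE-like cells they summed to 325 and 254 CPM. The 8 CGE markers set CGE-like cells (6781 and 6500 CPM) apart from LGE-like cells (1859 and 1411 CPM). The part of LGE-type expression in the differences was not tested. The genes for making and packing GABA did not pass the test, whereas 5 of the 10 GABAA receptor subunits did, together with *Glra2* and both chloride transporters. Of 23 members tested, 11 were called, 7 higher and 4 lower in MGE-like cells, where 6.53% of all genes tested were called higher and 6.92% lower. The median log2 fold change was 0.32 over the members and 0.00054 over all genes. MGE-like cells had a median of 6368 and 6387 UMIs per cell and CGE-like cells 4473 and 5512, and thinning all cells to 2000 UMIs left 6 calls.

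*Gad1* stood at 474 and 394 CPM in MGE-like cells and at 575 and 461 CPM in CGE-like cells (log2 -0.18 ± 0.16), and *Gad2* at 665 and 703 CPM against 658 and 745 CPM (log2 0.036 ± 0.14), so the embryos of the classes overlapped for both. *Slc32a1* was at 85.9 and 73.1 CPM against 79.4 and 54.6 CPM (log2 0.34 ± 0.20, adjusted p = 0.345). *Abat* ran the other way, at 43.1 and 36.0 CPM in MGE-like and 88.9 and 110 CPM in CGE-like cells, 2.40-fold lower in the MGE-like class (log2 -1.26 ± 0.20, adjusted p = 2.57e-04). *Slc6a11*, an uptake transporter, was low in both, with 4 and 5 UMIs against 6 and 10 (log2 -1.93 ± 0.54, adjusted p = 0.0254), a call lost with at least 500 detected genes, with doublets kept and after thinning.

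*Gabrg3* was at 284 and 292 CPM in MGE-like cells and 60.9 and 56.4 CPM in CGE-like cells, a 5.18-fold difference (log2 2.37 ± 0.23, adjusted p = 1.60e-06). *Glra2* was at 206 and 210 CPM against 68.8 and 65.1 CPM, 3.27-fold higher (log2 1.71 ± 0.18, adjusted p = 4.76e-06). Both embryos agreed closely for these genes, and 41.2% and 42.0% of MGE-like cells carried a *Gabrg3* UMI against 8.41% and 8.61% of CGE-like cells (29.5% and 28.0% against 5.86% and 6.01% after thinning; in IPC-like cells, with few *Gabrg3* counts, 1.27% and 0.373% before thinning). *Gabra3* was at 58.0 and 58.9 CPM against 34.1 and 33.5 CPM (log2 0.86 ± 0.18, adjusted p = 0.00342), and *Gabbr2* at 42.2 and 41.0 CPM against 28.0 and 28.0 CPM (log2 0.65 ± 0.16, adjusted p = 0.0131). *Gabra5*, the alpha subunit of many extrasynaptic receptors, was at 8.96 and 7.80 CPM against 2.24 and 2.29 CPM (log2 1.95 ± 0.41, adjusted p = 0.00370), with 4 and 5 UMIs in CGE-like cells. *Gabrg1* was seen 62 times in MGE-like cells and 3 times in CGE-like cells, a ratio of 9.07 with an exact counting interval from 2.96 to 45.2 (adjusted p = 0.00543). The calls on *Gabrg1* (log2 2.08, adjusted p = 0.314) and *Gabra3* (0.70, adjusted p = 0.0530) were lost at the finer resolution, those on *Gabrg1*, *Gabra5* and *Gabbr2* after thinning (adjusted p = 0.174, 0.233 and 0.358), and that on *Gabbr2* also with doublets kept (adjusted p = 0.0544).

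*Gabra4* was lower in MGE-like cells, at 1.49 and 1.38 CPM against 4.47 and 11.5 CPM (log2 -2.44 ± 0.46, adjusted p = 0.00144), and its difference was -1.48 in embryo 4 alone and -2.99 in embryo 5 alone. At the finer resolution it was not called (log2 -1.68, adjusted p = 0.215). Of the chloride transporters, *Slc12a5* was higher in MGE-like cells, at 23.5 and 23.2 CPM against 15.7 and 9.17 CPM (log2 1.01 ± 0.25, adjusted p = 0.0112), and *Slc12a2* was lower, at 20.3 and 27.1 CPM against 43.6 and 36.2 CPM (log2 -0.68 ± 0.20, adjusted p = 0.0322). Both calls on these transporters were lost at the finer cluster resolution and with doublets kept. *Gabrb1*, *Gabrb2*, *Gabra2*, *Glra1*, *Glrb*, *Gabbr1*, *Gphn* and *Nlgn2* were not called. *Gabrd* rested on 1 UMI. Of the pathway genes 34 were tested and 9 called, 4 higher and 5 lower. The GABAB auxiliary subunits split, with *Kctd8* 9.18-fold and *Kctd12* 8.44-fold higher in MGE-like cells, and *Kctd16* 7.53-fold and *Kcnj3* 11.4-fold lower.

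LGE-like cells were not part of that comparison, and their levels set them apart for several subunits. *Gabrb1* was at 134 and 88.7 CPM in LGE-like cells, against 11.7 and 6.42 CPM in MGE-like and 17.9 and 20.2 CPM in CGE-like cells. *Gabrg1* was at 23.6 CPM in both embryos, against 7.04 and 6.65 CPM in MGE-like and 1.12 and 0.458 CPM in CGE-like cells. *Abat*, at 105 and 98.2 CPM, was above MGE-like cells (43.1 and 36.0 CPM) but not separated from CGE-like cells (88.9 and 110 CPM). *Glra3*, a glycine receptor subunit, had 59 UMIs in all kept cells, of which 26 were in LGE-like cells of embryo 4 and 0 in LGE-like cells of embryo 5.

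Cajal-Retzius-like cells, the early neurons of the outermost layer, were compared with excitatory neuron-like cells. They stood out by *Gabrg3* and *Abat* and had less *Glra2*, *Gabrb2*, *Gabra2*, *Gabra3*, *Gabra5* and *Gabbr2*. Of 22 members tested, 9 were called, 3 higher and 6 lower, where 13.6% of all genes were called higher and 17.5% lower. The medians were -0.064 over the members and -0.12 over all genes. With 61 and 67 cells this is the smallest class tested, and thinning to 2000 UMIs per cell left 5 calls.

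*Gabrg3* was at 257 and 329 CPM in Cajal-Retzius-like cells, the highest mean of the 13 classes and not separated from the MGE-like class in the 2 embryos, against 12.8 and 17.7 CPM in the excitatory class (16-fold, log2 4.0 ± 0.20, adjusted p = 4.77e-11). *Gabrg3* UMIs were found in 67.2% and 68.7% of Cajal-Retzius-like cells and in 5.21% and 5.76% of excitatory neuron-like cells, or in 31.1% and 35.8% against 2.05% and 2.47% after thinning. *Abat* was at 95.9 and 87.4 CPM (15.3-fold, log2 3.94 ± 0.18, adjusted p = 1.56e-11). This breakdown enzyme was high in a class in which *Gad1* had 1 and 0 UMIs, *Gad2* 2 and 0 and *Slc32a1* 1 and 0. *Glrb*, the beta subunit that tethers glycine receptors to gephyrin, was at 64.6 and 47.2 CPM against 30.6 and 31.1 CPM (log2 0.61 ± 0.17, adjusted p = 0.0121), a call lost with doublets kept (log2 0.32, adjusted p = 0.207) and after thinning (0.058, adjusted p = 0.952).

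*Glra2* went the other way, at 31.2 and 27.6 CPM in Cajal-Retzius-like cells against 113 and 118 CPM (4.70-fold lower, log2 -2.23 ± 0.24, adjusted p = 8.43e-07). *Gabrb2* was at 42.0 and 44.9 CPM against 81.0 and 93.3 CPM (log2 -1.27 ± 0.23, adjusted p = 2.69e-04), and *Gabra2* at 101 and 95.5 CPM against 169 and 154 CPM (log2 -0.97 ± 0.20, adjusted p = 0.00109). *Gabra3* was lower with 4 and 10 UMIs in the Cajal-Retzius-like class (log2 -1.23 ± 0.33, adjusted p = 0.00806), by -2.08 in embryo 4 alone and -0.68 in embryo 5 alone. *Gabra5* had 3 UMIs there, and the excitatory class was higher by a ratio of 4.13 with an exact counting interval from 1.41 to 20.1 (adjusted p = 0.0127). *Gabbr2* was at 36.6 and 36.8 CPM against 44.8 and 53.0 CPM (log2 -0.67 ± 0.19, adjusted p = 0.0121), while *Gabbr1* was not called (111 and 96.7 CPM against 89.1 and 84.2 CPM, log2 0.0038 ± 0.13). The calls on *Gabra3*, *Gabra5* and *Gabbr2* were lost after thinning, that on *Gabra2* with doublets kept, that on *Gabra3* with at least 500 detected genes and that on *Gabbr2* with DESeq2's Wald test. *Glra1* had 9 UMIs in embryo 4 and 0 in embryo 5 and was not called. Of 35 further pathway genes tested, 14 were called, 3 higher and 11 lower. *Kcnj6*, a potassium channel subunit that partners *Kcnj3*, was 3.90-fold and *Kctd16* 3.18-fold higher, *Kctd12* was 9.41-fold lower, and *Slitrk3*, an adhesion protein of inhibitory synapses, had 0 UMIs and was at least 4.17-fold lower when 3 counts over both embryos together are allowed for.

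RGC-like cells were compared with excitatory neuron-like cells to ask which receptor genes the stem cells carry. They had more of *Gabra4*, *Gabrb1*, the uptake transporter *Slc6a11*, *Slc12a2* and *Abat*, and far less of most other receptor genes. Of 22 members tested, 15 were called, 5 higher and 10 lower. This was a broad contrast, in which 33.1% of all genes tested were called higher and 34.4% lower, with median log2 fold changes of -0.51 over the members and -0.0057 over all genes.

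*Gabrb1* was at 129 and 118 CPM in RGC-like cells and 27.5 and 26.7 CPM in the excitatory class (3.97-fold, log2 1.99 ± 0.15, adjusted p = 1.17e-09). Its head-to-head neighbour *Gabra4* was at 31.1 and 33.1 CPM against 4.03 and 3.98 CPM (6.99-fold, log2 2.81 ± 0.16, adjusted p = 2.79e-11). The RGC-like class had the highest mean of both genes among the 13 classes, with LGE-like cells next, and the embryos of these classes were separated for *Gabra4* but not for *Gabrb1*. Within the RGC-like class the cluster led by *Cdc20* and *Cenpa* (160 and 114 cells) was lower. It had *Gabrb1* at 16.8 and 12.8 CPM and *Gabra4* at 8.04 and 11.5 CPM. In the cluster led by *Tnc* and *Aldoc* they were at 167 and 141 CPM and at 31.6 and 36.8 CPM. *Slc6a11*, which takes GABA up across the plasma membrane of glia, was at 14.3 and 14.8 CPM against 1.07 and 1.88 CPM (8.59-fold, log2 3.1 ± 0.24, adjusted p = 5.53e-09). *Slc12a2* was at 49.6 and 61.5 CPM against 31.4 and 32.9 CPM (log2 0.59 ± 0.13, adjusted p = 5.56e-04), and *Abat* at 8.32 and 8.07 CPM against 4.24 and 5.75 CPM (log2 0.52 ± 0.15, adjusted p = 0.00501).

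*Glra2* was nearly absent from RGC-like cells, at 1.95 and 1.31 CPM against 113 and 118 CPM (80.6-fold lower, log2 -6.33 ± 0.22, adjusted p = 1.27e-14). *Gabbr2* was at 1.01 and 0.552 CPM against 44.8 and 53.0 CPM (70.6-fold lower, log2 -6.14 ± 0.20, adjusted p = 5.55e-15), by -5.64 in embryo 4 alone and -6.77 in embryo 5 alone. Its partner *Gabbr1* was only 2.32-fold lower, at 44.8 and 40.7 CPM against 89.1 and 84.2 CPM (adjusted p = 3.18e-09), so the genes of the 2 GABAB subunits differed in their pattern across these classes. *Gabra5* had 3 and 2 UMIs in RGC-like cells (43.6-fold lower, log2 -5.45 ± 0.42, adjusted p = 4.55e-09) and *Gabrb2* was at 6.24 and 4.21 CPM against 81.0 and 93.3 CPM (19.0-fold lower, log2 -4.25 ± 0.18, adjusted p = 2.53e-13). *Gabra2* was 7.23-fold, *Gabra3* 3.26-fold, *Gabrg3* 2.39-fold, *Nlgn2* 2.27-fold and *Glrb* 2.09-fold lower.

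*Gphn* was at 275 and 299 CPM in RGC-like cells and 276 and 274 CPM in the excitatory class (log2 -0.13 ± 0.11, adjusted p = 0.318). *Slc12a5* was at 5.23 and 5.38 CPM against 4.13 and 4.38 CPM and was not called (adjusted p = 0.589). *Glra1* was at 3.22 and 4.34 CPM against 1.83 and 1.87 CPM, and was not called (adjusted p = 0.0674). It was called with the embryo as a block (log2 0.84, adjusted p = 0.0364), with DESeq2's Wald test, without the filter on low counts, in a fit of only these classes and after thinning. Of 35 pathway genes tested, 32 were called, 11 higher and 21 lower. *Gldc*, which degrades glycine, was 11.3-fold higher and *Gabre*, the epsilon subunit of GABAA receptors, 18.0-fold higher, while *Jakmip1* was 94.9-fold and *Iqsec3* 63.4-fold lower, the latter with 4 and 0 UMIs in RGC-like cells.

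IPC-like cells were compared with RGC-like cells to follow the members from stem cell to committed progenitor. The subunits that marked RGC-like cells were lower, and *Abat*, *Glra2*, *Gabbr1*, *Nlgn2* and *Gabra2* were higher. The calls on *Glra2*, *Nlgn2* and *Gabra2* were lost after thinning. That on *Gabra2* was also lost with DESeq2's size factors, with its Wald test and in a fit of only these classes. Those on *Slc12a5*, *Glra1* and *Gphn* were lost with doublets kept. *Gphn* also lost its call with at least 500 detected genes, at the finer resolution and without the filter on low counts. Of 22 members tested, 14 were called, 6 higher and 8 lower, beside 23.2% of all genes called higher and 26.6% lower. The median log2 fold change was 0.092 over the members and -0.046 over all genes.

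*Gabra4* was at 4.24 and 3.09 CPM in IPC-like cells against 31.1 and 33.1 CPM in RGC-like cells (8.36-fold lower, log2 -3.06 ± 0.19, adjusted p = 3.67e-10). *Gabrb1* was at 17.7 and 17.3 CPM against 129 and 118 CPM (6.80-fold lower, log2 -2.77 ± 0.17, adjusted p = 2.28e-10), and *Slc6a11* at 2.46 and 3.09 CPM against 14.3 and 14.8 CPM (5.09-fold lower, log2 -2.35 ± 0.27, adjusted p = 1.50e-06). The embryos of the classes did not overlap for any of these 3 genes. *Gabrg3* was at 1.71 and 0.794 CPM, the lowest level of the neural classes, against 7.85 and 6.76 CPM (5.45-fold lower, adjusted p = 2.43e-05). Both chloride transporters were lower, *Slc12a2* at 28.6 and 28.4 CPM against 49.6 and 61.5 CPM (log2 -0.91 ± 0.14, adjusted p = 2.66e-05) and *Slc12a5* at 2.83 and 3.09 CPM against 5.23 and 5.38 CPM (log2 -0.79 ± 0.24, adjusted p = 0.00973). *Glra1* was lower at 26 and 10 UMIs against 48 and 63 (log2 -1.34 ± 0.47, adjusted p = 0.0230), by -0.69 in embryo 4 alone and -2.23 in embryo 5 alone, and *Gphn* was slightly lower (log2 -0.30 ± 0.12, adjusted p = 0.0364).

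*Abat* was at 23.3 and 22.6 CPM in IPC-like cells, above the RGC-like class at 8.32 and 8.07 CPM (2.90-fold, log2 1.53 ± 0.15, adjusted p = 1.03e-07) and above excitatory neuron-like cells at 4.24 and 5.75 CPM. Within the IPC-like class it was at 26.3 and 27.1 CPM in the cluster led by *Kif26b* and *Eomes*, at 24.9 and 25.5 CPM in the cluster led by *Neurog2*, and at 9.45 and 5.69 CPM in the cycling cluster. *Glra2* was at 5.81 and 2.82 CPM against 1.95 and 1.31 CPM (2.78-fold, log2 1.48 ± 0.32, adjusted p = 8.61e-04), *Gabbr1* at 69.5 and 63.8 CPM against 44.8 and 40.7 CPM (1.61-fold, adjusted p = 1.76e-05), and *Nlgn2* at 40.2 and 36.9 CPM against 29.3 and 30.3 CPM (1.34-fold, adjusted p = 0.00222). *Gabra2* was called narrowly (log2 0.43 ± 0.17, adjusted p = 0.0462), and its embryos overlapped, with 40.1 and 26.3 CPM against 29.8 and 21.3 CPM.

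*Gad2* was 3.46-fold higher in IPC-like cells at a low level, 8.94 and 10.8 CPM against 2.75 and 3.1 CPM in RGC-like cells (log2 1.79 ± 0.30, adjusted p = 6.37e-05), and at 3.61 and 2.86 CPM in excitatory neuron-like cells. With doublets kept the call was lost (log2 0.64, adjusted p = 0.0637). The clusters of the IPC-like class differed, with *Gad2* highest in the cycling cluster at 18.4 and 33.2 CPM. It was at 9.35 and 7.51 CPM in the cluster led by *Kif26b* and *Eomes* and at 4.16 and 3.22 CPM in the cluster led by *Neurog2*. *Gad2* UMIs were found in 6.28% and 5.37% of IPC-like cells, 2.91% and 1.62% of RGC-like cells and 3.47% and 2.13% of excitatory neuron-like cells, or in 1.51% and 1.51%, 0.760% and 0.428%, and 1.06% and 0.682% after thinning, with median depths of 9647.5 and 8113.5, 10855.5 and 9757.5, and 10928 and 9538 UMIs. The 8 GABAergic-lineage markers summed to 40.1 and 39.7 CPM in IPC-like, 91.5 and 89.8 CPM in RGC-like and 12.1 and 6.21 CPM in excitatory neuron-like cells, and their part in the *Gad2* level was not tested. *Gad1* did not move with *Gad2* (1.94 and 1.23 CPM against 1.74 and 0.620 CPM, adjusted p = 0.399). Of 35 pathway genes tested, 21 were called, 11 higher and 10 lower. *Kcnj3* was 12.7-fold and *Plcl1*, which binds GABAA receptors, 2.66-fold higher, *Slc12a4*, a potassium-chloride cotransporter, was 3.74-fold lower, and *Gabrq*, the theta subunit, had 0 UMIs in IPC-like cells and was at least 3.93-fold lower when 3 counts over both embryos together are allowed for.

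Among excitatory neurons, deep-layer neuron-like cells (1617 and 1674) were compared with upper-layer neuron-like cells (509 and 631). Most subunits of GABAA receptors tested were higher in the deep-layer class, as were *Glra2* and *Slc12a5*. Of 23 members tested, 12 were called, 10 higher and 2 lower, where 15.3% of all genes were called higher and 10.7% lower. The medians were 0.57 over the members and 0.036 over all genes. The deep-layer class was made of 2 clusters that differed widely in the members, and most cells of the cluster led by *Slit3* and *Crabp1* (607 and 616 cells) left the class when the cells were clustered otherwise, so values that rest on it are given with that limit.

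*Gabra5* was at 12.5 and 14 CPM in deep-layer and 0.367 and 0.986 CPM in upper-layer neuron-like cells (19.6-fold, log2 4.29 ± 0.34, adjusted p = 8.22e-08), by 5.12 in embryo 4 alone and 3.86 in embryo 5 alone. *Gabrb1* was at 23.2 and 32.0 CPM against 3.85 and 1.48 CPM (11-fold, log2 3.45 ± 0.35, adjusted p = 1.24e-06), by 2.66 and 4.47 in embryos 4 and 5 alone, and *Gabra3* at 24.7 and 22.3 CPM against 4.22 and 4.93 CPM (5.31-fold, log2 2.41 ± 0.21, adjusted p = 2.45e-07). The deep-layer embryos lay above the upper-layer embryos for all 3 subunits, although with doublets kept *Gabrb1* was at 0.23 and not called. *Gabrb2*, a beta subunit, was at 108 and 131 CPM against 32.7 and 42.2 CPM (3.30-fold, log2 1.72 ± 0.22, adjusted p = 1.78e-05), and *Glra2* at 144 and 156 CPM against 36.7 and 52.6 CPM (3.48-fold, log2 1.80 ± 0.16, adjusted p = 3.53e-07). The call on *Gabrb2* was lost with at least 500 detected genes (log2 0.55, adjusted p = 0.0532) and with doublets kept (0.37, adjusted p = 0.164). *Gabrd*, the delta subunit of extrasynaptic receptors, had 127 UMIs in all kept cells, of which 104 were in the deep-layer class and 2 in the upper-layer class, a ratio of 14.9 with an exact counting interval from 4.02 to 125 (adjusted p = 0.00434). That call was lost with DESeq2's Wald test (adjusted p = 0.0565), and after thinning *Gabrd* gave no value.

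*Slc12a5* was at 4.86 and 4.88 CPM in deep-layer and 2.38 and 1.32 CPM in upper-layer neuron-like cells (2.77-fold, log2 1.47 ± 0.31, adjusted p = 0.00203), and *Slc12a2* at 32.4 and 40.5 CPM against 28.8 and 27.9 CPM (log2 0.42 ± 0.14, adjusted p = 0.0425), a small difference that turned to -0.10 with doublets kept. The call on *Slc12a5* was lost with at least 500 detected genes (log2 0.61, adjusted p = 0.126), with doublets kept (0.32, adjusted p = 0.391) and after thinning (2.11, adjusted p = 0.0507). The 2 members called lower were *Gabrg3*, at 7.13 and 10.3 CPM against 20.7 and 19.6 CPM (log2 -1.15 ± 0.27, adjusted p = 0.00460), and *Slc6a11*, with 21 and 17 UMIs against 11 and 14 (log2 -1.13 ± 0.38, adjusted p = 0.0381). *Gabra2* was called higher in the deep-layer class (log2 0.58 ± 0.18, adjusted p = 0.0263), but its direction turned to -2.43 with cells of at least 500 detected genes and to -2.31 with doublets kept. *Gabra4* was likewise called higher (log2 1.27 ± 0.33, adjusted p = 0.0101) and turned to -1.58 and -1.86 under those alternatives. *Gabbr1*, *Gabbr2*, *Gphn* and *Nlgn2* were not called, but passed with the embryo as a block, at log2 differences of 0.22, 0.29, 0.21 and -0.19 (adjusted p = 0.0447, 0.0192, 0.0392 and 0.0405), and all but *Nlgn2* also passed under at least 1 other alternative.

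The clusters of the deep-layer class differed in most of these members. *Gabra2* was at 13.3 and 13.7 CPM in the deep-layer cluster led by *Hs3st4* and at 345 and 271 CPM in the one led by *Slit3*, *Crabp1*, *Slc4a4* and *Crym*, with upper-layer neuron-like cells between them at 104 and 75.9 CPM. *Gabra5* and *Glra2* ran opposite to *Gabra2*, at 19.4 and 21.8 CPM against 1.81 and 2.0 CPM for *Gabra5* and at 201 and 217 CPM against 56.1 and 62.4 CPM for *Glra2*. *Gabra3* was at 36.9 and 32.1 CPM against 5.56 and 7.22 CPM and *Gabrb2* at 152 and 182 CPM against 39.3 and 50.9 CPM. *Gabrb1* differed less, at 20.6 and 31.2 CPM against 27.2 and 33.1 CPM. Of the cells of the *Slit3* cluster, 24.7% stayed in the deep-layer class with the lower gene minimum and 38.5% with the finer resolution, and 89.5% went to cells without a subclass with doublets kept. These cluster values are descriptions and were not tested.

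**Figure D3:**
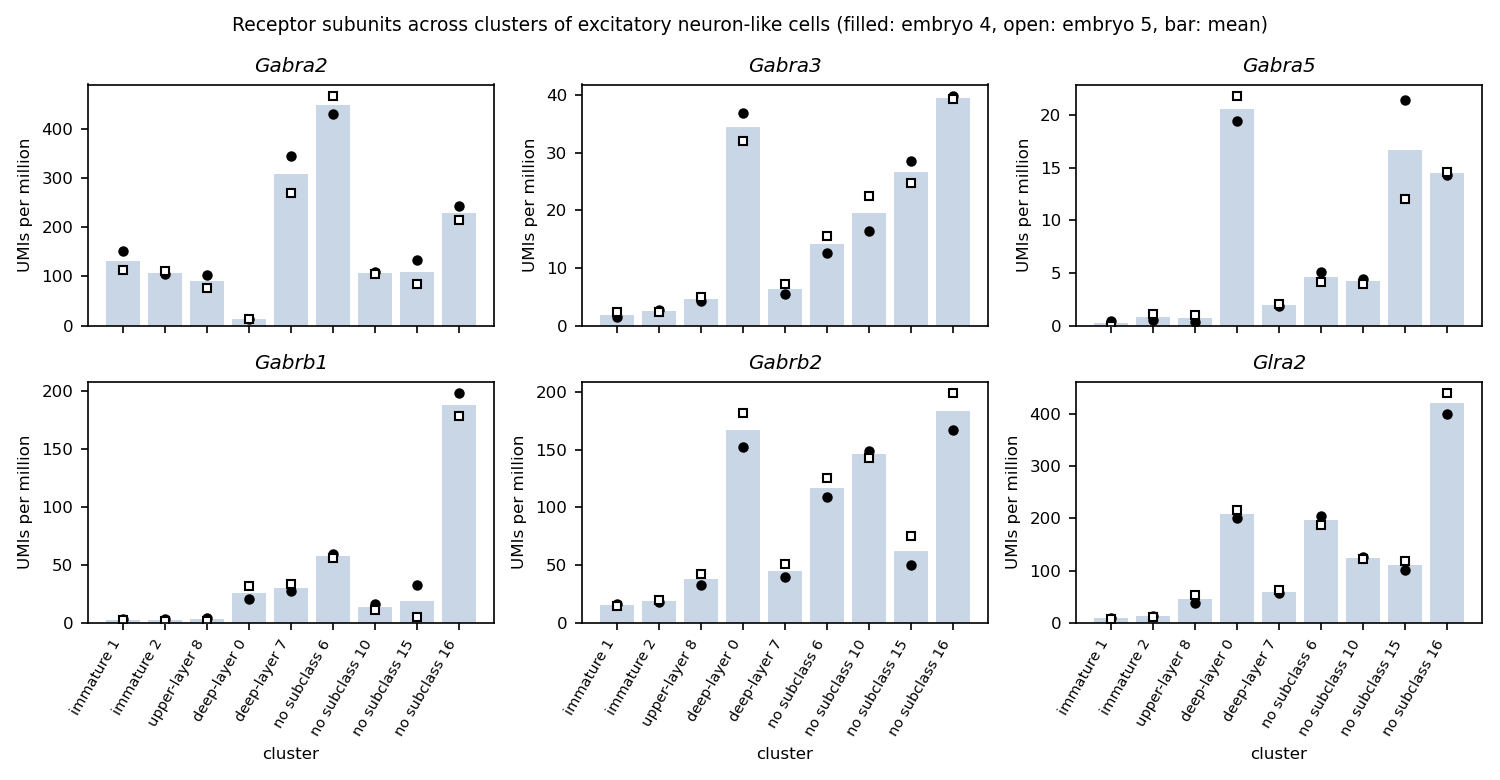
CPM of *Gabra2*, *Gabra3*, *Gabra5*, *Gabrb1*, *Gabrb2* and *Glra2* in the 9 clusters of excitatory neuron-like cells, 1 panel per gene, with filled points for embryo 4, open points for embryo 5 and bars for their mean. The deep-layer clusters lie far apart for *Gabra2* (13.3 and 13.7 CPM in the *Hs3st4* cluster, number 0, and 345 and 271 CPM in number 7), and cluster 16, led by *Grin2a*, *Tshz2* and *Nr4a2*, is highest for *Glra2*.

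Clusters of excitatory neuron-like cells that fitted no subclass held the highest levels of some members. The cluster led by *Grin2a*, *Il1rapl2*, *Tshz2* and *Nr4a2* (201 and 216 cells) had *Glra2* at 401 and 441 CPM and *Gabrb1* at 198 and 178 CPM. The cluster led by *Tafa1* and *Tafa2* (622 and 645 cells) had *Gabra2* at 432 and 468 CPM and *Gabbr2* at 90.3 and 112 CPM. Of the 34 further pathway genes tested between deep-layer and upper-layer cells, 15 were called, 8 higher and 7 lower. *Kctd12* was 22.7-fold and *Kctd8* 18.7-fold higher in the deep-layer class, and *Plcl1* was 2.77-fold and *Slc12a7*, a potassium-chloride cotransporter, 2.37-fold lower.

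Immature neuron-like cells (1710 and 1780), the recently born excitatory neurons, were compared with the mean of the deep-layer and upper-layer classes. The receptor genes *Gabra3*, *Gabra4*, *Gabra5*, *Gabrb1*, *Gabrb2*, *Gabbr2*, *Glra2* and *Glrb* were called lower in the immature cells, although *Gabra4*, *Gabrb1* and *Glra2* turned under an alternative. No member but *Abat* was called higher. The call on *Gabbr2* was lost with at least 500 detected genes, and that on *Glrb* there, at the finer resolution and after thinning. *Gabra5* lost its call at the finer resolution and after thinning, and *Gabra4* and *Gabrb1* lost theirs after thinning. The call on *Abat* was lost after thinning and in a fit of only the classes compared. Of 23 members tested, 10 were called, 1 higher and 9 lower, beside 17.3% of all genes called higher and 16.9% lower. The medians were -0.22 over the members and 0.01 over all genes. Thinning to 2000 UMIs left 5 calls, and with doublets kept no cluster took the name immature, so that alternative gave no value. The immature class also held other cells under 2 alternatives. Of the *Tafa1* cluster, without a subclass here, 88.9% became immature with at least 500 detected genes and 71.7% at the finer resolution.

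*Glra2* was at 10.3 and 9.51 CPM in immature neuron-like cells, below the upper-layer class at 36.7 and 52.6 CPM and the deep-layer class at 144 and 156 CPM (8.44-fold lower than their mean, log2 -3.08 ± 0.17, adjusted p = 7.01e-10), although at the finer resolution the difference was 0.17 and not called. *Gabrb2* was at 17.1 CPM in both embryos against 32.7 and 42.2 CPM and 108 and 131 CPM (4.0-fold lower, log2 -2.0 ± 0.21, adjusted p = 1.06e-06). *Gabbr2* was at 16.4 and 15.6 CPM against 44.0 and 49.0 CPM and 50.1 and 59.4 CPM (3.21-fold lower, log2 -1.68 ± 0.11, adjusted p = 2.90e-09). These receptor genes were thus ordered alike in both embryos, with the immature class below both layer classes.

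*Gabra5* (log2 -2.57 ± 0.42, adjusted p = 1.35e-04), with 8 UMIs in each embryo of the immature class, and *Gabra3*, at 2.01 and 2.36 CPM (log2 -2.28 ± 0.22, adjusted p = 5.46e-07), were called lower too. The *Gabra5* difference rested on the deep-layer class, since the upper-layer class was itself at 0.367 and 0.986 CPM. In the immature clusters led by *Unc5d* and *Nrp1* it was at 0.451 and 0 CPM and at 0.527 and 1.12 CPM. *Gabrb1* was called lower, at 3.04 and 1.82 CPM (log2 -1.81 ± 0.37, adjusted p = 0.00117), but it lay between the embryos of the upper-layer class (3.85 and 1.48 CPM), and the difference turned to 1.03 with cells of at least 500 detected genes. *Gabra4* (log2 -0.82 ± 0.29, adjusted p = 0.0385) turned to 1.12 under the same alternative and to 0.019 at the finer resolution. *Glrb* was lower at 23.7 and 26 CPM against 31.7 and 36.3 CPM and 28.8 and 27.4 CPM (log2 -0.35 ± 0.11, adjusted p = 0.0270). *Gphn* was called lower by a small amount (log2 -0.21 ± 0.067, adjusted p = 0.0224), and this turned to 0.08 with the lower gene minimum and 0.25 at the finer resolution.

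*Gabra2* was at 130 and 113 CPM in immature cells and was not called in the fit reported here (log2 0.15 ± 0.15, adjusted p = 0.493). It was called with at least 500 detected genes and at the finer resolution. The upper-layer class was at 104 and 75.9 CPM, and the deep-layer clusters were at 13.3 and 13.7 CPM and at 345 and 271 CPM. *Nlgn2* was level (62.7 and 60.9 CPM, log2 0.008 ± 0.07, adjusted p = 0.952). *Abat* was at 5.90 and 6.54 CPM (log2 0.75 ± 0.25, adjusted p = 0.0274), by 1.54 in embryo 4 alone and 0.46 in embryo 5 alone. Within the immature class it was at 9.71 and 10.7 CPM in the cluster led by *Unc5d* and at 1.45 and 1.97 CPM in the cluster led by *Nrp1*. *Gad2*, *Gabrg1* and *Gabbr1* were not called in the fit reported here, but were called with at least 500 detected genes, at the finer resolution and with the embryo as a block (log2 0.74, 1.54 and -0.21, adjusted p = 0.0488, 0.0471 and 0.0153 with the block). Of 34 pathway genes tested, 19 were called, 9 higher and 10 lower, among them *Plcl1* (3.22-fold higher), *Kcnj6* (2.47-fold higher), *Kctd12* (7.86-fold lower) and *Iqsec3* (5.58-fold lower).

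The balance of the chloride transporters was followed as the ratio of *Slc12a2* to *Slc12a5* UMIs, which compares classes and does not compare the abundance of the 2 genes. Among the named classes the ratio was lowest in MGE-like and LGE-like cells and high in progenitors and young excitatory cells. It was 0.864 and 1.17 in MGE-like, 0.95 and 1.59 in LGE-like and 2.79 and 3.95 in CGE-like cells, and 7.6 and 7.53 in excitatory neuron-like cells. The CGE-like embryos lay above both MGE-like embryos, whereas MGE-like and LGE-like cells overlapped. RGC-like cells were at 9.47 and 11.4, IPC-like cells at 10.1 and 9.20, immature neuron-like cells at 12.6 and 13.5, and cycling GABAergic-lineage cells, with 9 and 17 *Slc12a5* UMIs, at 17.7 and 14.3. Upper-layer neuron-like cells, at 12.1 and 21.2, rested on 13 and 8 *Slc12a5* UMIs, and deep-layer neuron-like cells stood at 6.66 and 8.31. Both genes differed between cycling and MGE-like cells, *Slc12a5* at 3.57 and 6.05 CPM against 23.5 and 23.2 CPM and *Slc12a2* at 63.0 and 86.5 CPM against 20.3 and 27.1 CPM. In Cajal-Retzius-like cells the embryos disagreed, at 5.33 and 1.70 with 6 and 10 *Slc12a5* UMIs. The ratios were not tested as such. With doublets kept, the mean over embryos moved from 1.02 to 1.48 in MGE-like cells. It also moved from 16.7 to 7.15 in upper-layer and from 7.49 to 5.35 in deep-layer neuron-like cells. After thinning it moved from 9.65 to 17.2 in IPC-like cells, with 4 and 5 *Slc12a5* UMIs. The RGC-like mean changed little, from 10.5 to 10.3 with doublets kept and 9.85 after thinning.

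**Figure D4:**
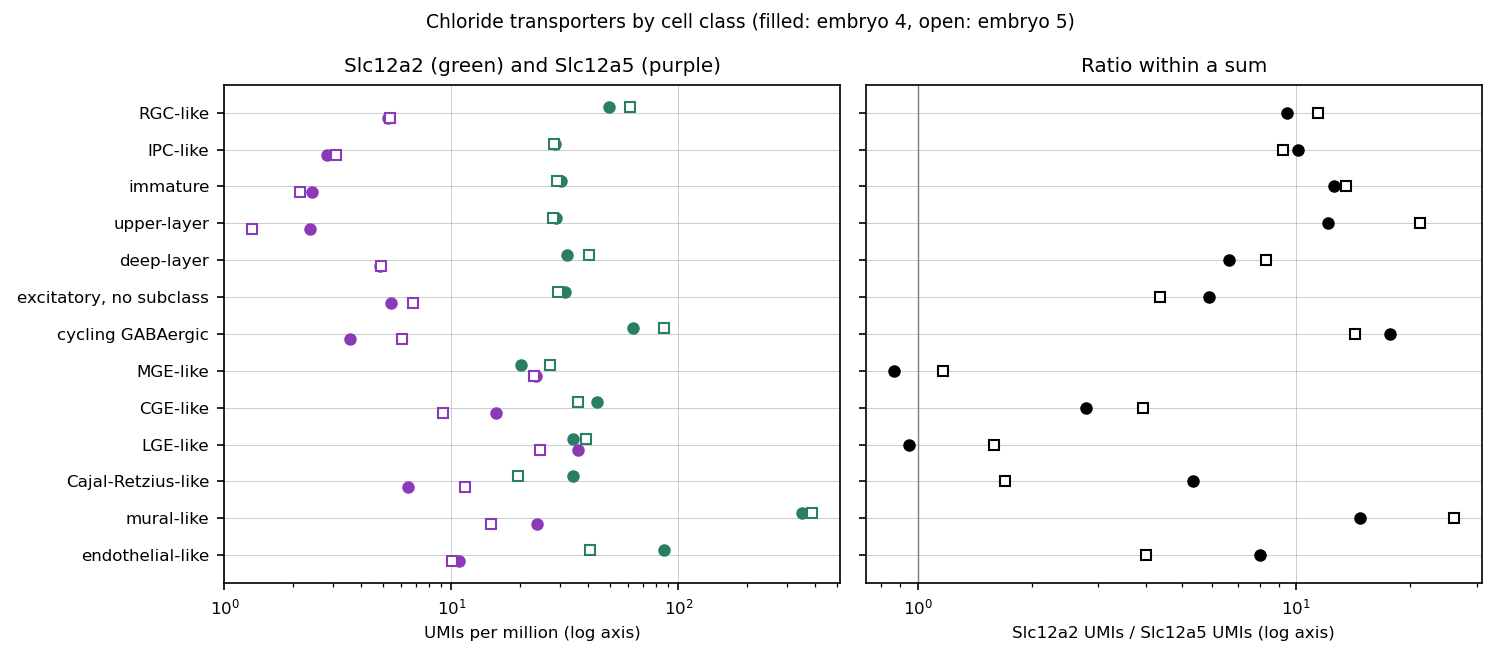
Levels of *Slc12a2* (green) and *Slc12a5* (purple) in CPM by cell class on a log axis, with filled points for embryo 4 and open points for embryo 5, and in the second panel the ratio of their UMIs, also on a log axis. MGE-like cells have the lowest ratio among the named classes (0.864 and 1.17), immature neuron-like cells lie at 12.6 and 13.5, and mural-like cells have the most *Slc12a2*, at 351 and 389 CPM.

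For 3 members the genes with the most similar pattern of log2(CPM + 10) were sought over 26 points, the 13 classes in each embryo, among 10296 genes that reached at least 20 CPM in both embryos of a class. Points of 1 embryo share a library, so the correlations are descriptions and carry no p-value. *Gad2* was closest to *Dlx5* and *Dlx6os1* (Pearson's r = 0.986 for each), *Sp9* (0.985), *Dlx6* (0.979) and *Gad1* (0.979). Of these, *Dlx5*, *Dlx6os1*, *Sp9* and *Dlx6* are among the markers that named the GABAergic lineage. *Slc12a5* was closest to *Klhdc8b* (0.850), *Zmat4* (0.836), *Ncoa3* (0.826), *Rarb* (0.823) and *Rbms3* (0.821). *Slc12a2* was closest to *Tpm2* (0.967), *Sept11* (0.947), *Ctsc* (0.941), *Rbpms2* (0.938) and *Rasl11a* (0.936), a pattern with its peak in mural-like cells.

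Across the 13 ordered classes, the highest and the next class were separated in both embryos for *Slc6a11*, *Slc12a2*, *Slc12a5*, *Gabra2*, *Gabra4*, *Gabra5*, *Gabrg1*, *Gabrd*, *Gabbr2*, *Glra1*, *Glra2* and *Glrb*, of which *Glra1* rested on 4 UMIs in endothelial-like cells. *Gphn* was even across classes, with means over embryos from 206 CPM in mural-like to 370 CPM in MGE-like cells. *Gabbr1* was also found throughout, from 31.7 CPM in endothelial-like to 116 CPM in LGE-like cells. Some members were scarce at this stage. *Gabra6*, the alpha subunit known from cerebellar granule cells, had 2 UMIs in all kept cells, *Glra3* 59, *Gabrd* 127, *Slc6a13* 223 and *Gabrg1* 433. *Slc6a13*, an uptake transporter, had 0 to 2 UMIs per embryo in RGC-like, IPC-like, GABAergic-lineage and Cajal-Retzius-like cells and 2 and 6 in excitatory neuron-like cells, while 205 of its 219 UMIs in embryo 5 were in fibroblast-like cells, a class with no cell in embryo 4.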

How the data were processed

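Single-cell RNA-seq libraries of 2 embryonic mouse brains (10x Genomics, 3′ ends) were analysed, 1 per embryo and both of the wild-type group. The authors deposited whole-number UMI counts per gene and barcode, made according to the submitters' notes with Cell Ranger 7.0.0 on mm10. Whether intronic reads were counted is not given in the sources used here. The deposited counts start at 500 UMIs per barcode. The members and gene lists were chosen with earlier results of these data known.

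Barcodes needed 1000 or more genes with a UMI and no more than 10% of UMIs from mitochondrial genes (1772 and 765 barcodes fell below the gene minimum in embryos 4 and 5, and 174 and 56 exceeded the mitochondrial limit). The barcodes most like simulated doublets were removed at a rate of 0.8% per 1000 barcodes, which took 947 and 1052. Cells were clustered with scanpy 1.11.5 and leidenalg 0.10.2 (Python 3.11.15) at resolution 1 on 2000 variable genes, with 30 principal components and 20 neighbours. Before these 2000 were chosen, 17 variable genes were left out. They were members, further pathway genes or genes with symbols of the same families. The 26 clusters were named from markers that include no member. The rule that scored the markers and the split of cycling clusters were set after the clusters had been seen. A cluster of 107 and 74 cells stayed unnamed. Classes of at least 20 cells in each embryo entered the fits.

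The sums of UMIs over the cells of a class in an embryo were tested with edgeR 4.0.16 (R 4.3.3, TMM, quasi-likelihood test, Benjamini-Hochberg adjustment over 16257 genes for lineages and 16140 for subclasses), with all classes of a level in 1 fit. The SE is the size of the log2 fold change divided by the square root of the F statistic. The steps were tested on simulated data. Alternatives were a minimum of 500 genes, doublets kept, resolution 2, the embryo as a replicate block, DESeq2 1.42.0 (size factors, Wald test), no filter on low counts, fits with only the classes compared, cells thinned to 2000 UMIs, and each embryo alone. Classes of 1 embryo come from 1 animal, which is what pairs them: over 3817 genes, deviations from class means correlated at a median of 0.19 over 28 pairs of 8 classes, from -0.07 to 0.69, and 21 pairs exceeded 0.1. Intervals are exact at 95% and, like limits at 3 counts, cover counting error only.

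All 26 members are named in the text. Of the 41 further pathway genes, the 2 with the largest positive and the 2 with the largest negative log2 fold change in each comparison are named, among those called and of the same sign in both embryos. Other genes are named where they define a cluster or class.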

Additional observations from a re-analysis of the deposited data

Results flagged for a closer look

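Several members were higher in classes or subclasses that were not themselves compared than in any embryo of a class that was compared. Of these, LGE-like cells are part of the GABAergic-lineage class and excitatory neuron-like cells without a subclass part of the excitatory class. *Slc12a2* averaged 370 CPM in mural-like cells over both embryos, 134 CPM in microglia or macrophage-like cells and 74.7 CPM in cycling GABAergic-lineage cells, where the highest value in a compared class was 61.5 CPM, in RGC-like cells of embryo 5. The microglia or macrophage-like value rested on 47 and 14 UMIs from 26 and 16 cells, whose sums also held 1996 and 1398 CPM of excitatory neuron markers. *Slc6a11* averaged 26.5 CPM in cycling GABAergic-lineage cells against at most 14.8 CPM. *Slc6a13* reached 409 CPM in the fibroblast-like cells of embryo 5, the only embryo with such cells, against at most 0.917 CPM.

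LGE-like cells averaged 23.6 CPM of *Gabrg1* against at most 11.5 CPM in a compared class and 18.3 CPM of *Gabra5* against at most 14 CPM. Excitatory neuron-like cells without a subclass averaged 261 CPM of *Gabra2* against at most 169 CPM and 72.6 CPM of *Gabbr2* against at most 59.4 CPM. Choroid plexus or ependymal-like cells, 29 and 15 cells led by *Ttr*, *Rspo2* and *Lmx1a*, averaged 219 CPM of *Gabrb1* against at most 129 CPM and 423 CPM of *Gphn* against at most 381 CPM. None of these differences was tested.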

How the results depend on the processing

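The 82 fold changes of called members gave 738 values with a test under the alternatives, of which 653 kept their direction and call, 72 lost the call and 13 turned. Of 164 values in 1 embryo alone, 1 turned, *Gabrb1* between GABAergic-lineage and excitatory neuron-like cells in embryo 5 (-0.0032, against 0.83 in embryo 4). That fold change also turned without LGE-like cells (-1.23), an alternative chosen after seeing the data. Between deep-layer and upper-layer cells, *Gabra2* turned with at least 500 detected genes (-2.43), with doublets kept (-2.31) and at resolution 2 (-0.18), *Gabra4* with at least 500 genes (-1.58) and with doublets kept (-1.86), and *Slc12a2* with doublets kept (-0.10). Between immature and layer neuron-like cells, *Gabra4* turned with at least 500 genes (1.12) and at resolution 2 (0.019), *Gabrb1* with at least 500 genes (1.03), *Gphn* under both (0.08 and 0.25) and *Glra2* at resolution 2 (0.17).

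Of 63 counts of called members, 58 stayed within 1.5 times the count reported. Thinning left 5 of 9 for Cajal-Retzius-like cells, 5 of 10 for immature cells and 6 of 11 between MGE-like and CGE-like cells, where doublets kept left 7 and resolution 2 left 6. With doublets kept no cluster was named immature, so that comparison gave no value. With the embryo as a replicate block the count between neuron types was 14 and no call was lost in any comparison, and the gained calls stand beside their results. The cause of these changes was not tested. Names of excitatory classes also moved between cells. With at least 500 detected genes, 41.8% of the cells of the *Unc5d* cluster became IPC-like and 47.5% of upper-layer cells kept their class. At resolution 2, 66.7% of the *Unc5d* cluster became unnamed and 86.5% of upper-layer cells kept their class. Thinning leaves fewer UMIs and cells. Classes rest on 2 embryos, and *Gabra6*, *Gabrd*, *Glra3* and *Slc6a13* had too few UMIs for most comparisons.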
